A study of Homo sapiens with 5 samples.

Results

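The promoters of 60 genes of the cell cycle and mitosis were examined for acetylation of histone H3 at lysine 27 (H3K27ac) in HCT116 cells with and without interferon beta (IFN-β). The genes were named by their textbook roles, from G1 cyclins and replication licensing factors to mitotic kinases and chromosome proteins. They were selected on earlier results of these data, in which the peaks of BIRC5, LMNB1 and CDKN2D had been among those with the lowest differences, IFN-β minus control. A promoter peak was one whose centre lay at most 1 kb from any start of the gene in GENCODE release 44, and where a gene had several such peaks the one with the highest mean signal was taken. All 60 of the 60 genes had a promoter peak. The same rule gave 10057 promoter peaks of 11721 protein-coding genes, out of 20087 H3K27ac peaks in all.

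HCT116 cells come from a human colorectal carcinoma. The line in every sample, HCT116 CMV-osTIR1 RAD21-mAC, expresses the plant auxin receptor osTIR1 from a CMV promoter and carries degron-tagged RAD21, a cohesin subunit. Every culture had 0.1% DMSO for 6 h. It was followed by IFN-β at 1000 unit/ml for 1 h in 2 libraries and by no further treatment in 2 control libraries, which are labelled 0 min, so that the groups may also differ by 1 h of culture. H3K27ac ChIP-seq was carried out on 500000 cells per experiment, and 1 input library served as background. All libraries came from this 1 engineered line.

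The cell cycle is driven by cyclin-dependent kinases (CDKs), whose cyclin partners are made and destroyed in turn. Genes for DNA replication are switched on at the G1/S transition by E2F transcription factors. Genes for mitosis peak later, in G2 and M, under the MuvB complex with B-MYB and FOXM1, through a promoter element known as the cell cycle genes homology region (CHR), often with CCAAT boxes bound by NF-Y. H3K27ac is a mark of active promoters and enhancers, and it lies on the nucleosomes beside the start sites of expressed genes. IFN-β acts through a receptor that activates STAT and IRF factors, which bind the interferon-stimulated response element (ISRE), and type I interferons are known to slow the proliferation of many cells.

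To show the elements in these promoters, sequences were taken from the RefSeq promoter table for GRCh38.p14, which held 48 of the 60 genes. AURKA, BIRC5, CCND1, CCNE2, CDK2, FOXM1, HMGB2, MCM4, MCM5, TPX2, TTK and UBE2C had no entry there. The first set below shows the CHR letters TTTGAA in capitals, in the 6 G2/M genes that held them and had the lowest H3K27ac difference for their signal and GC content. Each is written 5′ to 3′ on the strand that reads TTTGAA.
CDK1 (chr10:60778449-60778478, plus strand): cctttagcgcggtgagTTTGAAactgctcg
CENPF (chr1:214603219-214603244, plus strand): tggcggctgcgggcagTTTGAAttag
BUB1B (chr15:40161030-40161059, plus strand): gcgcgggaccgttaaaTTTGAAacttggcg
MAD2L1 (chr4:120066811-120066840, minus strand): gtgctgcgtcgttactTTTGAAacgcttgg
TOP2A (chr17:40418026-40418055, plus strand): agttggccggggtttgTTTGAAtaaaccaa
PRC1 (chr15:90994542-90994571, minus strand): tcgccccgtggcgcggTTTGAAattttgcg

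The second set shows, in capitals, a word of the E2F element in 6 G1/S genes chosen in the same way, where E2F3 tied with MCM2 at -0.12. The word TTCCCGC was searched on both strands, and so were the word TTGGCGC, the word TTCGCGC and the word TTGCCGC.
CDC25A (chr3:48188435-48188464, plus strand): cgcccccctttcctagTTGGCGCcaaacgg
MCM6 (chr2:135876507-135876536, plus strand): cacaggagctggagatTTCGCGCcaaacct
MCM7 (chr7:100101380-100101409, plus strand): ggccggccaaccgaaaTTGGCGCgaaacgt
TYMS (chr18:657607-657636, minus strand): cccttccgcgcgccttTTCCCGCggccgtc
E2F1 (chr20:33686391-33686420, minus strand): tcgcggcaaaaaggatTTGGCGCgtaaaag
E2F3 (chr6:20401839-20401868, plus strand): gtttcgcgggaggaccTTGGCGCgtaaacc

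H3K27ac signal is given below as the authors' deposited mean for each group, on a log2 scale of normalized reads per library, so that a value of 7.04 stands for 132 reads. The table holds these group means and no value per library. No SD or interval could therefore be computed, the authors' own test of each peak was not used, and every difference below is a description. The depth behind the 60 genes ranged from 25.3 to 237 normalized reads in the control group and from 12.6 to 130 in the IFN-β group. The libraries were made from bulk cultures, in which fewer cells in a given phase and less acetylation per cell cannot be told apart. Of the epithelial markers, EPCAM, KRT8, KRT18, KRT19 and CDH1 had a promoter peak and VIL1 had none, with KRT8 and KRT18 on the same peak. Of the markers of other cell types, PTPRC, CD3E, PECAM1, ALB and GFAP had none and COL1A1 had one, with a log2 signal of 5.24 in control and 4.88 after IFN-β.

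Cell cycle promoters were strongly acetylated in control cells and had lower H3K27ac signal in the IFN-β group in every case. The median signal of the 60 genes was 6.54 in control and 5.54 after IFN-β, and the median difference was -0.98, which left 50.7% of the control level. The differences ranged from -1.48 to -0.56, and 0 of the 60 lay above 0. Most promoters of the genome also had less signal in the IFN-β group. Over all promoter peaks the median was 5.62 in control and 4.88 after IFN-β, the median difference was -0.76, and 226 of 10057 lay above 0. The values had been scaled by the authors for library size, and the part of that scaling in the shift of the whole table was not tested. A difference of -1 or below, which is at most 50% of the control signal, was seen in 27 of the 60 genes (45.0%), beside 19.0% of all promoter peaks. The genes were chosen with this contrast known, so these counts describe the list and test nothing.

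**Figure D1:**
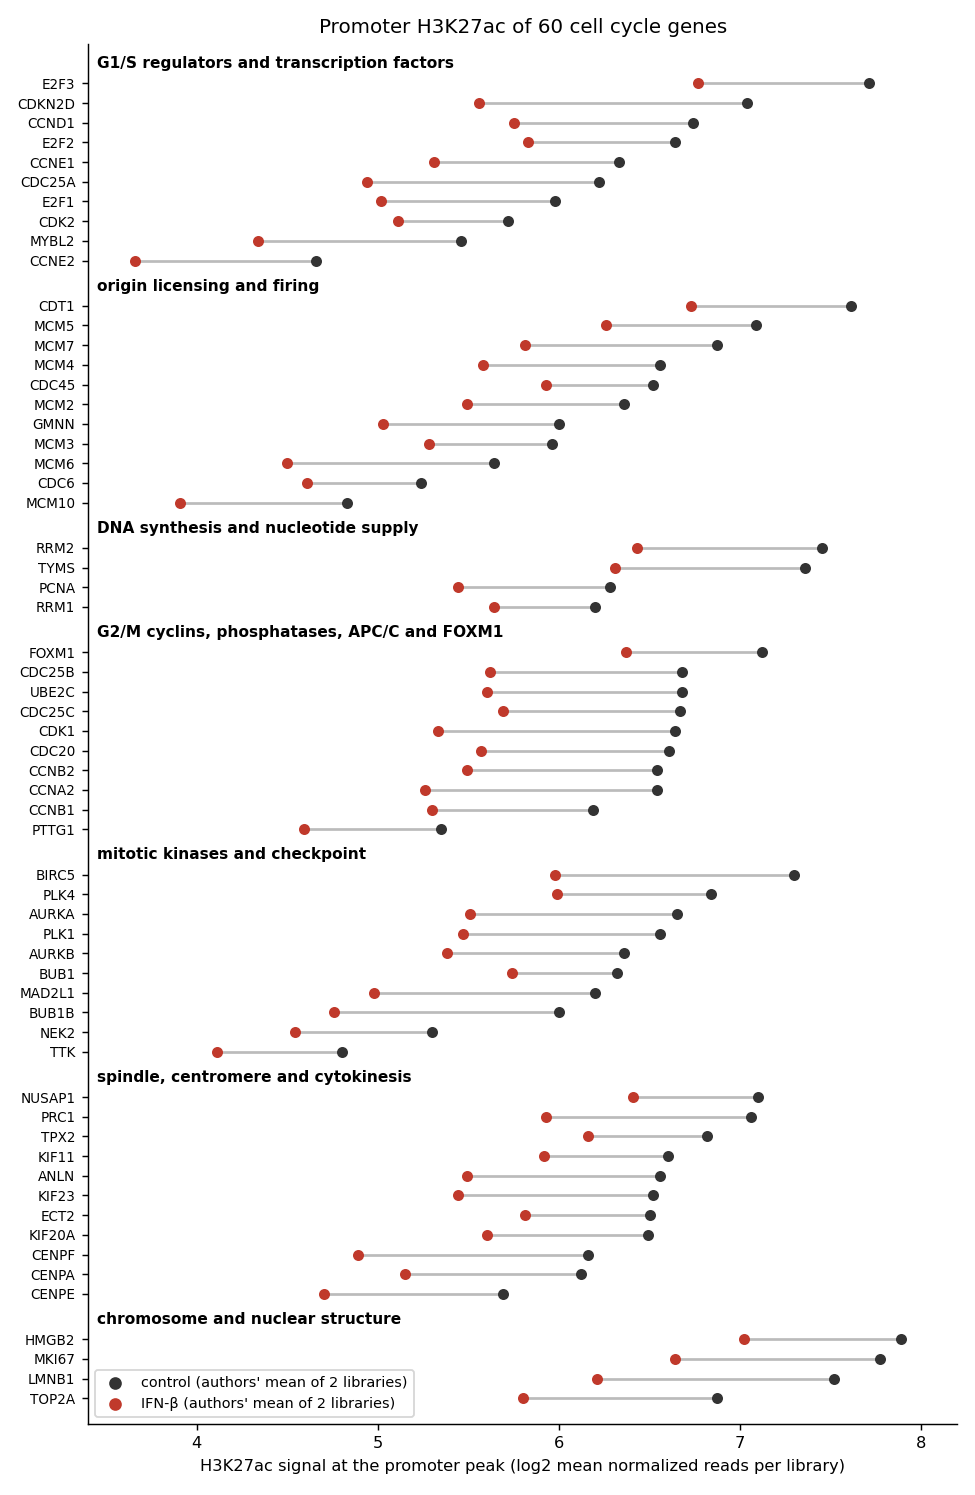
H3K27ac signal (x axis, log2 mean normalized reads per library) at the promoter peak of each of the 60 genes, grouped by role, with the control mean in black and the IFN-β mean in red. Each point is the authors' mean of 2 libraries, with no error available, and in all 60 genes the red point lies left of the black one.

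Signal and base composition both bear on the comparison. The cell cycle promoters had a median mean signal of 6.12, beside 5.30 for all promoter peaks, and 51 of the 60 lay above that median. Their median GC content was 61.4%, beside 64.3%. Each difference was therefore also set against the median of the other promoter peaks in the same bin, from 5 bins of mean signal by 5 bins of GC content. This relative difference had a median of -0.21 on the log2 scale over the 60 genes and ranged from -0.67 to 0.21. It was below 0 in 48 of them (80.0%), beside 49.3% of all promoter peaks. Among all promoter peaks the 5th percentile was -0.49 and the 95th was 0.51, and most of the cell cycle genes lay within these bounds, on the lower side. A relative difference of -0.5 or below was seen in 7 genes, CDKN2D, CDK1, CENPF, BUB1B, CCNA2, BIRC5 and MAD2L1, and in 4.79% of all promoter peaks. A value of 0.5 or above was seen in 0 of the 60, beside 5.20% of all promoter peaks. The percentiles and shares of all promoter peaks cover every level of signal. The bins match the median only, and a change of spread with signal was not tested. These shares are therefore not a matched background for the 60 genes, most of which had high signal. Just inside the bound of -0.5 was MAD2L1 at -0.50, and just outside it were CDC25A and LMNB1, both at -0.49. Leaving out BIRC5, LMNB1 and CDKN2D, which had been seen first, the median difference of the other 57 was -0.98 and the median relative difference -0.20, with 24 at a difference of -1 or below.

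**Figure D2:**
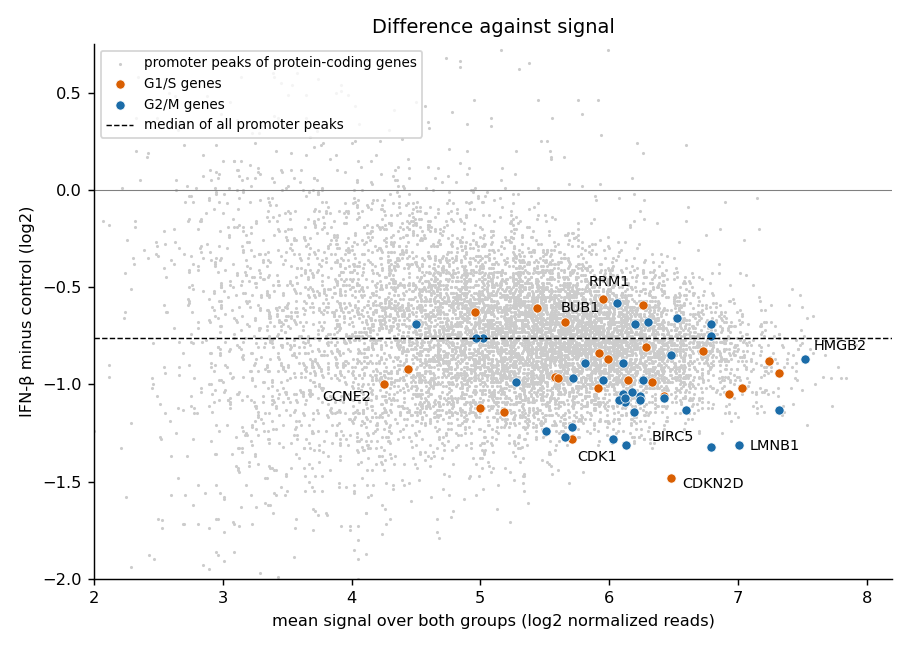
Difference in H3K27ac signal between IFN-β and control (y axis, log2) against the mean signal of both groups (x axis, log2 normalized reads) for promoter peaks of protein-coding genes in grey, G1/S genes in orange and G2/M genes in blue. All coloured points lie below 0 and most lie to the right of the cloud's centre and below the dashed line at -0.76, with 175 grey points outside the axes.

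The regulators of the G1/S transition held the gene with the lowest difference of all. CDKN2D, which encodes the CDK4 and CDK6 inhibitor p19INK4d, had a control signal of 7.04 and an IFN-β signal of 5.56, or 132 against 47.2 normalized reads (chr19:10568247-10569959). The difference of -1.48 left 35.8% of the control level, and the relative difference was -0.67. CDC25A, the phosphatase that activates CDK2, had 6.22 in control and 4.94 after IFN-β, a difference of -1.28. Its partner in function CDK2 stood at the other end of the group, with 5.72 and 5.11, a difference of -0.61 and a relative difference of 0.10. The CDK2 peak also holds the start of PMEL, and reads on it cannot be assigned to either gene.

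The cyclins of G1 lay between these. CCND1, which encodes the CDK4 and CDK6 partner cyclin D1, had 6.74 and 5.75 (-0.99), and its relative difference was -0.18. The cyclin E genes CCNE1 and CCNE2 had differences of -1.02 and -1. CCNE2 was the most weakly acetylated of all 60 genes, with 4.66 in control and 3.66 after IFN-β, or 25.3 and 12.6 normalized reads, and it lay exactly on the bound of -1. The CCNE2 peak also holds a start of NDUFAF6 and does not hold the canonical CCNE2 start. The activator transcription factors E2F1, E2F2 and E2F3 had differences of -0.96, -0.81 and -0.94. Among them E2F3 had by far the highest signal, 7.71 in control and 6.77 after IFN-β, at a peak centred 831 bp from the nearest start, the farthest of all 60. That peak does not hold the canonical E2F3 start, and the E2F3 stretch shown above lies outside it. The nearest peak beyond the 1 kb limit lay 2402 bp from a start of AURKB and had 3.02 and 2.49 (-0.53). MYBL2, which encodes the MuvB partner B-MYB, had 5.46 and 4.34, a difference of -1.12. Over the 10 regulators the median difference was -0.995 and the median relative difference -0.195.

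Origin licensing genes were the group with the median difference nearest to that of all promoters, -0.88 over 11 genes, with a median relative difference of -0.12. The 6 subunits of the replicative helicase did not share 1 value. MCM6 had 5.64 in control and 4.50 after IFN-β (-1.14), and MCM7 had 6.87 and 5.81 (-1.06). MCM4, MCM2 and MCM5 followed with -0.98, -0.87 and -0.83, and MCM3 had the smallest difference of the complex, with 5.96 and 5.28 (-0.68). Their relative differences thus ran from -0.40 for MCM6 to 0.04 for MCM3. The loading factor CDT1 was the most acetylated gene of the group, with 7.61 and 6.73, a difference of -0.88. Geminin (GMNN), which inhibits CDT1, had 6.00 and 5.03 (-0.97), and the other loading factor, CDC6, had 5.24 and 4.61 (-0.63). MCM10 and CDC45 act when the helicase is activated, and their differences were -0.92 for MCM10 and -0.59 for CDC45. The signal at CDC45 was 6.52 and 5.93, at a peak that also holds the start of UFD1.

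Of the 4 genes for DNA synthesis and nucleotide supply, 2 encode the subunits of ribonucleotide reductase, and these lay apart. RRM2, the subunit whose level varies through the cycle, had 7.45 in control and 6.43 after IFN-β, a difference of -1.02. RRM1 had 6.20 and 5.64, and its difference of -0.56 was the smallest of all 60 genes, at 67.8% of the control level. Thymidylate synthase (TYMS) had 7.36 and 6.31 (-1.05), and the sliding clamp PCNA had 6.28 and 5.44 (-0.84). Relative differences were -0.20 for RRM2, 0.19 for RRM1, -0.23 for TYMS and -0.07 for PCNA.

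Among the genes that drive entry into mitosis, the kinase and its cyclin A had the lowest values. CDK1, the kinase of mitotic entry, had 6.64 in control and 5.33 after IFN-β, or 99.7 and 40.2 normalized reads (chr10:60778444-60779444). The difference was -1.31 and the relative difference -0.61, the lowest of the G2/M genes. CCNA2 (cyclin A2) had 6.54 and 5.26, with -1.28 and -0.51. The B-type cyclins had smaller differences, -1.05 for CCNB2 and -0.89 for CCNB1. The phosphatases that remove the inhibitory phosphates from CDK1 had -1.06 (CDC25B) and -0.98 (CDC25C). The CDC25C peak with the highest signal lies beside the start of FAM53C, 6323 bp from the canonical CDC25C start, and the peak at that start had 5.10 and 3.92 (-1.18).

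The exit from mitosis runs through the anaphase-promoting complex, and 3 genes of its circuit were on the list. Its activator CDC20 had 6.61 and 5.57 (-1.04), and its ubiquitin-conjugating enzyme UBE2C had 6.68 and 5.60 (-1.08). Securin (PTTG1), which is destroyed by the complex, had 5.35 and 4.59 (-0.76). The transcription factor FOXM1, an activator of G2/M genes, had the highest signal of its group, 7.12 and 6.37, and a difference of -0.75 close to the median of all promoters. Its relative difference was 0.07, the only value above 0 among these 10 genes, and its peak also holds starts of RHNO1 and TULP3.

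The mitotic kinases and the spindle checkpoint held both a low and a high extreme. BIRC5 encodes survivin, a subunit of the chromosomal passenger complex, and had 7.30 in control and 5.98 after IFN-β, or 158 and 63.1 normalized reads. Its difference of -1.32 was the lowest of the 35 G2/M genes, and its relative difference was -0.51. The kinase of the same complex, AURKB, had 6.36 and 5.38 (-0.98). Checkpoint genes spanned nearly the whole range of the G2/M genes. BUB1B (BUBR1) had 6.00 and 4.76, with a relative difference of -0.54, and MAD2L1 (MAD2) had 6.20 and 4.98, with -0.50. BUB1 had 6.32 and 5.74, and its relative difference of 0.21 was the highest of all 60 genes. TTK, the kinase MPS1, had a low signal of 4.80 and 4.11 (-0.69).

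Of the other mitotic kinases, AURKA, which acts at the spindle poles, had 6.65 and 5.51, a difference of -1.14. PLK1 had -1.09, PLK4, the kinase of centriole duplication, had -0.85, and NEK2, which acts in centrosome separation, had -0.76. In relative terms AURKA stood at -0.44 and PLK1 at -0.28, while PLK4 and NEK2 both stood at -0.04. The median over the 10 kinase and checkpoint genes was -1.04, and -0.26 in relative terms.

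The 11 genes of the spindle, the centromere and cytokinesis lay below other promoters of like signal and GC content or level with them. CENPF, a protein of the outer kinetochore, had 6.16 in control and 4.89 after IFN-β, with a difference of -1.27 and a relative difference of -0.55. The central spindle protein PRC1 had 7.06 and 5.93 (-1.13), and the motor KIF23, which works with it in cytokinesis, had 6.52 and 5.44 (-1.08). Anillin (ANLN) had -1.07, the kinetochore motor CENPE -0.99, the centromeric histone CENPA -0.97 and the motor KIF20A -0.89. The other 4 genes had relative differences between 0.01 and 0.04 and so were level with their reference peaks. They were NUSAP1, with 7.10 and 6.41, ECT2, with 6.50 and 5.81, KIF11, with 6.60 and 5.92, and TPX2, with 6.82 and 6.16. KIF11 and TPX2 act in building the bipolar spindle, NUSAP1 binds spindle microtubules, and ECT2 activates RhoA at the cleavage furrow.

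Genes for chromosome and nuclear structure carried the highest signal of any role. HMGB2, a chromatin protein, had 7.89 in control and 7.02 after IFN-β, or 237 and 130 normalized reads, the highest signal of all 60 genes. MKI67, the proliferation marker Ki-67, had 7.77 and 6.64 (-1.13). LMNB1, which encodes lamin B1 of the nuclear envelope, had 7.52 and 6.21, or 184 and 74.0 normalized reads, with a difference of -1.31. TOP2A, the topoisomerase that untangles sister chromatids, had 6.87 and 5.80 (-1.07). HMGB2 had the smallest difference of the 4, with a difference of -0.87 and a relative difference of -0.06, against -0.49 for LMNB1, -0.37 for TOP2A and -0.31 for MKI67.

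The phase groups were then set beside each other. The 25 G1/S and replication genes had a median difference of -0.96 and the 35 G2/M genes one of -1.04. A difference of -1 or below was seen in 9 of 25 (36.0%) and in 18 of 35 (51.4%), beside 19.0% of all promoter peaks. The median relative difference was -0.17 for G1/S and -0.25 for G2/M, and it was below 0 in 19 of 25 and 29 of 35. The G1/S median was higher by 0.08 on both scales, which is small beside the range from -0.67 to 0.21 within the list. The gap in the difference was 0.04 without BIRC5, LMNB1 and CDKN2D and 0.12 without genes whose phase is ambiguous, and in the latter case the gap in the relative difference was 0.13. Genes of a group were measured in the same libraries and are not replicates, so this difference was not tested. Other genes of the same pathways, listed by role, were measured in the same way, among them SLBP and TACC3, which lie on different lists but share a peak. All 30 other G1/S and replication genes had a promoter peak, with a median difference of -0.78 and a median relative difference of -0.05. Of these, 6 of 30 were at a difference of -1 or below (20%), close to the 19.0% of all promoter peaks. A relative difference of -0.5 or below was seen in 0 of them, beside 4.79% of all, and 18 lay below 0 in relative terms (60%), beside 49.3% of all. Of 34 other G2/M genes, 33 had a promoter peak, all but CDCA3. Their median difference was -0.97 and their median relative difference -0.18, with 13 of 33 at -1 or below (39.4%) and 24 below 0 in relative terms (72.7%), beside the same shares of all promoter peaks. The kinetochore gene SPC25 and the chromosome motor KIF4A were the only 2 of them at a relative difference of -0.5 or below, with -0.89 and -0.57.

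**Figure D3:**
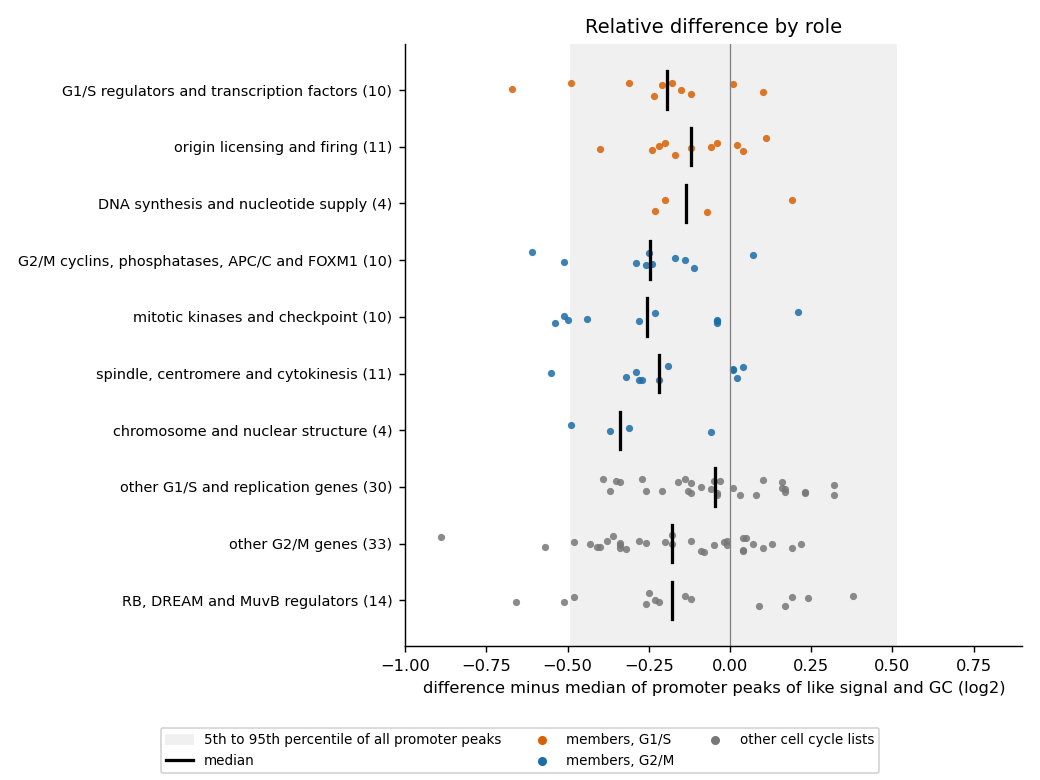
Relative difference (x axis, log2; the IFN-β minus control difference less the median of promoter peaks of like signal and GC content) for each gene as a point, by role, with the number of genes in brackets, the group median as a black bar and the range from the 5th to the 95th percentile of all promoter peaks shaded. Medians of the 7 roles lie between -0.34 and -0.12, and that of the other G1/S and replication genes lies at -0.05.

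Most of the peaks had the same width. Of the 60 peaks, 53 were 1000 bp wide, which was also the median width of all 20087 peaks, and the widest reached 1954 bp. The median distance from the peak centre to the nearest start of the gene was 140 bp, and the centre lay downstream of that start in 39 genes and upstream in 21. It fell in an intron of the canonical transcript in 24 genes, in an exon in 16 and outside the transcript in 20. A start of another protein-coding gene lay in 12 of the peaks, where the reads of both promoters cannot be told apart. The median relative difference was -0.15 in these 12 and -0.22 in the other 48. Further peaks within 1 kb of a start were seen in 6 genes. KIF11 had such a peak with 6.70 in control and 5.62 after IFN-β, a difference of -1.08, beside -0.68 at the peak with the highest mean signal. The further peak of CDC25B had 5.78 and 4.62 (-1.16), that of CENPA had 5.51 and 5.06 (-0.45), and that of E2F3 had 3.29 and 2.82 (-0.47). PCNA had a pair of them, with 4.61 and 3.92 (-0.69) and with 4.56 and 4.27 (-0.29). The CDC25B one is also the promoter peak of CENPB, and the last PCNA one is that of CDS2. Starts of other genes were looked for in the 60 chosen peaks only, so further peaks may belong to neighbouring genes. Further peaks can also lie far from the chosen one, as for KIF11, at chr10:92573405-92574405 against chr10:92592845-92593845.

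Promoter sequence was not used in choosing the genes, although genes of these roles are known for such elements. The letters of the CHR were found mainly in G2/M promoters, and those of E2F mainly in G1/S promoters. Windows from 250 bases before the start to 50 after it were searched on both strands. The CHR letters TTTGAA stood in 18 of 28 G2/M promoters (64.3%, 95% Wilson interval 45.8 to 79.3) and in 2 of 20 G1/S promoters (10.0%, 2.79 to 30.1), which were those of E2F3 and RRM1. Among all 9169 promoters with a peak and an entry the share was 8.32%, and it was 11.7% among other promoters of like GC content to the G2/M genes. An E2F word stood in 12 of 20 G1/S promoters (60%, 38.7 to 78.1) and in 6 of 28 G2/M promoters (21.4%, 10.2 to 39.5), beside 22.6% of all. These intervals cover counting error over promoters only. In the other lists TTTGAA stood in 23 of 29 G2/M promoters (79.3%) and 0 of 25 G1/S promoters, and an E2F word in 13 of 29 (44.8%) and 20 of 25 (80.0%).

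Other elements differed less between the phases. CCAAT stood in 24 of 28 G2/M promoters (85.7%) and in 13 of 20 G1/S promoters (65.0%), beside 37.0% of all promoters. TTTGAA and CCAAT stood together in 15 of 28 G2/M promoters (53.6%), beside 3.78% of all. The GC box GGGCGG, whose letters can overlap those of an E2F word, stood in 77.1% of the 48 promoters and 76.6% of all, and in 69.6% of promoters of like GC content. In the G2/M genes it stood in 22 of 28 (78.6%), beside 64.2% of promoters of like GC content. The TATA box TATAAA stood in 2 of 48, TOP2A and NUSAP1, beside 4.55% of all. The core of the ISRE was searched as a pair of GAAA copies separated by 2 free bases. It stood in 0 of 48 promoters, beside 2.60% of all and 3.28% of promoters of like GC content. The Wilson interval for 0 of 48 runs from 0 to 7.41% and holds both shares, so a depletion cannot be told from the background. In the other lists these letters stood in 2 of 29 G2/M promoters (6.90%) and 0 of 25 G1/S promoters. Listed genes without an entry were not searched.

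**Figure D4:**
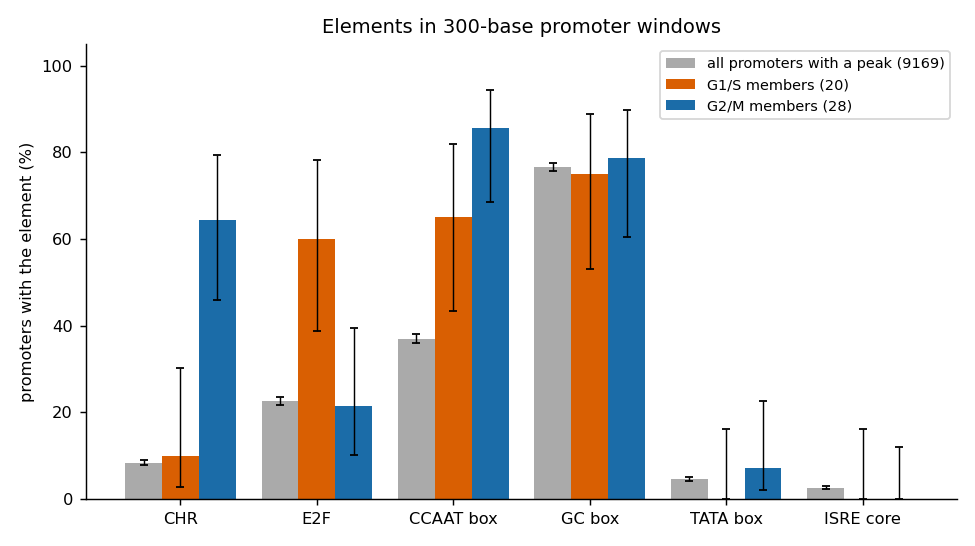
Share of promoters (y axis, percent) with each element in windows of 300 bases, for all promoters with a peak in grey, G1/S genes in orange and G2/M genes in blue, with 95% Wilson intervals for counting error. CHR is highest in G2/M genes (64.3%) and E2F in G1/S genes (60%), while the GC box is alike in all groups.

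The elements also had a position. In the G2/M genes 25 CHR sites were found in 18 promoters, with a median centre at -25.5 bases from the start, where minus is upstream, and 21 of the 25 lay within 100 bases of it. In the G1/S genes 24 E2F sites were found in 12 promoters, with a median centre at -34 bases and 19 within 100 bases. The 7 E2F sites of G2/M genes lay farther out, at a median of -129 bases, and 1 of them lay within 100 bases. The 47 CCAAT sites of G2/M genes had their median at -71 bases, between the CHR and the distal part of the window. Within 100 bases before to 50 after the start, TTTGAA stood in 17 of 28 G2/M promoters (60.7%) beside 3.38% of all, and an E2F word in 11 of 20 G1/S promoters (55.0%) beside 12.5% of all.

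**Figure D5:**
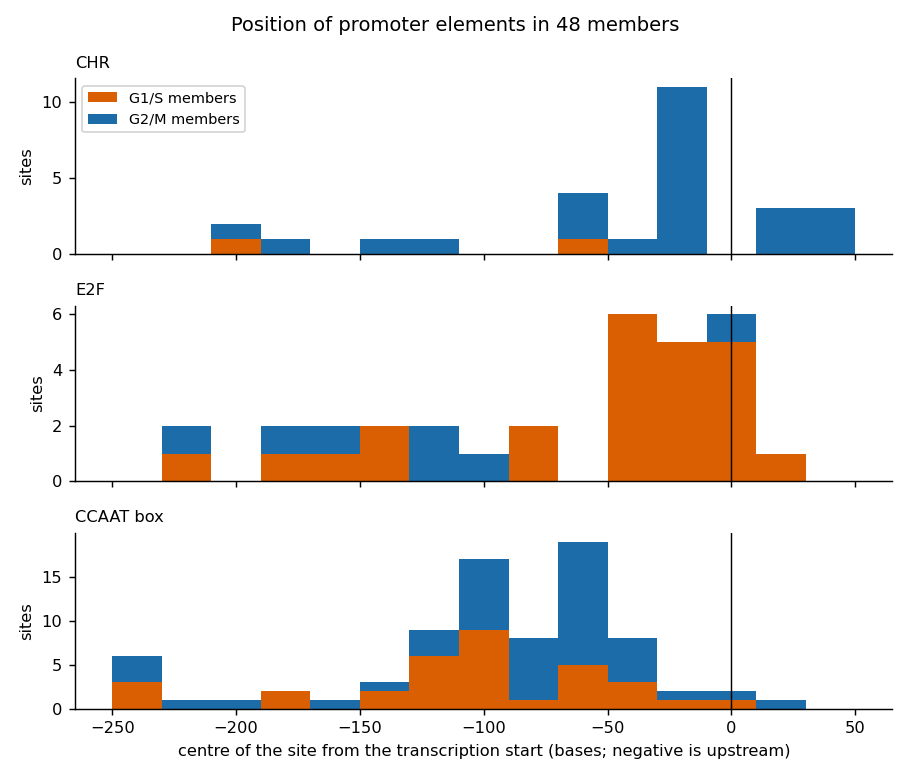
Number of sites (y axis) in bins of distance from the transcription start (x axis, bases, negative upstream) for CHR, E2F and CCAAT elements in the 48 genes with a promoter entry, with G1/S genes in orange and G2/M genes in blue, stacked. CHR sites of G2/M genes and E2F sites of G1/S genes both crowd just upstream of the start, and CCAAT sites lie farther upstream.

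The H3K27ac difference was then set beside the presence of each element. The median relative difference was -0.28 in the 18 G2/M promoters with TTTGAA and -0.21 in the 10 without it. It was -0.12 in the 12 G1/S promoters with an E2F word and -0.21 in the 8 without one. With the wider letters of the CHR, which add TTTAAA and its like, it was -0.265 in 26 G2/M promoters with the element and -0.135 in 2 without it. In the other G2/M list it was -0.18 in the 23 promoters with TTTGAA and -0.26 in the 6 without it, the opposite order. These gaps are small beside the range within each group, and none was tested. Elements were read at the entry nearest the canonical start, while each H3K27ac value came from the chosen peak. In CDC25C, which held TTTGAA, and in E2F3, which held an E2F word, the chosen peak does not hold that canonical start. The extremes of the list can be read in the same light, and the bases before the starts of the 3 genes with the lowest and the 3 with the highest relative difference among those with an entry are shown here, with TTTGAA, E2F words and CCAAT in capitals, in either orientation. Bases annotated as untranslated region of any transcript are left out, and each line is written 5′ to 3′ on the strand of the gene. The first 3 lines are the lowest. The CDK1 stretch lies outside its H3K27ac peak, which starts at chr10:60778444, and the other stretches lie inside their peaks.
CDKN2D (chr19:10569060-10569179, minus strand): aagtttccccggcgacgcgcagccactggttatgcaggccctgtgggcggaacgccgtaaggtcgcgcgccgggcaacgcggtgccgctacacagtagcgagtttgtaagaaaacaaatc
CDK1 (chr10:60778278-60778330, plus strand): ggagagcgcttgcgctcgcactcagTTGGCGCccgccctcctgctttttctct
CENPF (chr1:214602995-214603194, plus strand): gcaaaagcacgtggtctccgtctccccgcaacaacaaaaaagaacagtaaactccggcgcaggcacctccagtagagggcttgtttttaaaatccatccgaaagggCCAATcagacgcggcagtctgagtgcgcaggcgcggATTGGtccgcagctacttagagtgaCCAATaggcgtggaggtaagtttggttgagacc
CDC45 (chr22:19479720-19479825, plus strand): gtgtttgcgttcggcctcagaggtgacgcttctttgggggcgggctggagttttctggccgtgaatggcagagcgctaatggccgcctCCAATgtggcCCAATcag
RRM1 (chr11:4094485-4094684, plus strand): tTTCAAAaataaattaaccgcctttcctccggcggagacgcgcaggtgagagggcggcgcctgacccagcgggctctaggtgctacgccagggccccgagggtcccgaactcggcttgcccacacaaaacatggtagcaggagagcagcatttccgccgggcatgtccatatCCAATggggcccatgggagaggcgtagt
BUB1 (chr2:110678064-110678263, minus strand): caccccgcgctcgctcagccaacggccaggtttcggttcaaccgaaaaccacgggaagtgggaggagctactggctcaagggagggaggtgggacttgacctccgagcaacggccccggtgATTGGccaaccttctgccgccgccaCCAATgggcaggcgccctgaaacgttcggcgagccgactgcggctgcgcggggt

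CDK1 and CENPF, near the low end, both held TTTGAA in the window searched, in the stretches given above. CDKN2D, the lowest of all, held neither TTTGAA nor an E2F word, and BUB1, the highest, held neither as well. RRM1 held both, and CDC45 neither. CCAAT stood in the windows of all 6.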

How the data were processed

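H3K27ac ChIP-seq was measured in 4 libraries (2 IFN-β, 2 control) with 1 input. The submitters' processing notes name bcl2fastq 2.17, fastp 0.19.3, Bowtie2 2.25, SAMtools, MACS2, DiffBind and DESeq2. The deposited values are log2 means of normalized reads per peak, over all libraries and over each group, as the authors made them with DiffBind on GRCh38. The authors' table also holds their own fold-changes, p-values and FDR, which were not used. The signal columns are group means with no value per library, from which no test could be made.

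All 39 sequence names matched the GRCh38 reference, and 0 peaks passed a chromosome end. Starts came from GENCODE release 44. Differences were IFN-β minus control. For relative differences, promoter peaks of other genes were split into 5 equal parts of mean signal by 5 of GC content, giving 25 bins of 246 to 582 peaks. The calculation was tested on simulated data. Promoter windows of 300 bases came from RefSeq (GRCh38.p14), for 48 listed genes and 9169 genes in all. The entry nearest to the GENCODE canonical start was used, which was the same base in 46 of 48 and at most 326 bp away. Python 3.11.15, numpy 2.4.6, pandas 2.3.3, scipy 1.17.1, pysam 0.24.0 and matplotlib 3.10.9 were used.

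The genes, the other lists and the elements were chosen with earlier results of these data known. Both group values were to be named for the 3 lowest and 3 highest differences of each phase, the 3 highest signals, BIRC5, LMNB1 and CDKN2D, with further genes as examples of their role. Sequences were those of the 3 lowest and 3 highest relative differences outside chromosome 8. Alternatives changed the peak chosen, the distance, the starts, the reference peaks, the signal minimum, the genes kept and the element's letters or window.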

Additional observations from a re-analysis of the deposited data

How the results depend on the processing

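Over 61 alternative values of 8 results, 58 stayed within the bounds used (0.1 on the log2 scale, 1.5 times for a count, the Wilson interval for a share), 3 moved beyond them and 0 changed sign. The bound of 0.1 exceeds the G1/S minus G2/M gaps themselves, which were 0.08 and ranged from 0.04 to 0.12 for the difference and from 0.065 to 0.13 for the relative difference, so it says nothing of their stability. With promoter peaks of a mean signal of 6 or more, 36 of the genes were left and 4 had a relative difference of -0.5 or below. The count was 7 of all 60, and a shorter list lowers such a count by itself. No share over all promoter peaks of that signal is given. Within 500 bp either side of the peak centre, an E2F word stood in 90% of G1/S promoters, beside 46.4% of G2/M and 49.7% of all promoters. With the letters TTTAAA, the letters TTCGAA and the letters CTTGAA counted beside TTTGAA, 92.9% of G2/M promoters held the element, beside 25% of G1/S and 19.8% of all promoters. No paired analysis was possible because the deposited signal is given as group means only, and leaving out each library in turn was not run for the same reason. Weakly acetylated genes such as CCNE2 rest on few reads, and their differences are the least precise.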

Other observations

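The repressors and adaptors that govern these genes were on a list of their own, of RB family proteins, E2F4, E2F6 and their DP partners, MuvB subunits and CDK inhibitors. All 14 had a promoter peak, with a median difference of -0.95 and a median relative difference of -0.18, and 5 had a difference of -1 or below (35.7%), beside 19.0% of all promoter peaks. The lowest relative differences were at the MuvB subunits LIN37, LIN52 and LIN9. LIN37 had -0.66, with 5.01 in control and 3.70 after IFN-β, LIN52 had -0.51 and LIN9 -0.48. The LIN52 peak is also the promoter peak of ALDH6A1. The MuvB subunits LIN54 and RBBP4 had -0.25 and -0.12, and the CDK inhibitor gene CDKN1B lay below both at -0.26. The highest were RBL2, the pocket protein p130, at 0.38, with 4.90 and 4.55, and CDKN1A, the CDK inhibitor p21, at 0.24, with 4.26 and 3.93. RB1 and RBL1 had relative differences of 0.17 and 0.09. These values are a description, and the authors' own test of each peak was not used.

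Farther from the starts, 8 peaks lay between 1 and 5 kb from a start of 8 of the 60 genes, with a median difference of -0.77. Over the 1752 peaks between 1 and 5 kb from the nearest start of any protein-coding gene, the median difference was -0.63. The 8 peaks were not held to that rule, as their distance to starts of other genes was not used. The medians are therefore not compared. The lowest of the 8 was near CDC25B, with 3.25 in control and 0.40 after IFN-β, a difference of -2.85 at very few reads. The one near CDKN2D had 5.45 and 4.45, a difference of -1.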
